A study of Mus musculus with 69 samples.

Results

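The open promoters of silent genes described here are 2345 ATAC-seq regions of mouse ESCs, out of 89596 regions found by merging 6 peak lists wherever peaks overlapped by at least 1 bp. A region was selected when both WT lists held a peak there and it lay within 500 bp of a transcription start site (TSS) of a protein-coding gene. It was also required to lie within 500 bp of no TSS of a gene at a mean of 1 or more CPM (counts per 1000000 reads) in WT mRNA-seq, with genes absent from the count table taken as 0. Chromosome 11 and the sex chromosomes were left out, which kept 55782 regions with a peak in both WT lists. The comparison class is the 12048 regions chosen in the same way at promoters of genes at 1 CPM or more. Both classes were thus selected on WT values, and only the mutant lists and the comparison of the clones are independent of that choice. The exception is that mutant peaks helped to set the edges of merged regions, from which the distance to a TSS was measured.

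The study asked how a lysine-to-arginine change at position 27 of the histone variant H3.3, which removes a lysine that can be acetylated or methylated, affects chromatin and transcription. WT cells were J1, an ESC line of 129S4/SvJae background from the inner cell mass, and both genes that encode H3.3, H3f3a and H3f3b, had been edited by CRISPR-Cas9 in the H3.3K27R mutant lines. Mut18 and Mut43 are 1 clone each, and ESCs were grown on feeder cells that were removed by feeder-free passages before harvest. ATAC-seq and mRNA-seq each had 2 libraries of WT, 2 of Mut18 and 2 of Mut43. Replicates are called biological duplicates by the study, without saying whether they were separate cultures, so tests measure only the spread between these libraries, part of which may be technical.

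ATAC-seq marks DNA that the transposase Tn5 can reach, which at a promoter usually means a gap in the nucleosomes. An open promoter is not the same as a transcribed one. In ESCs, many regulators of later development have CpG-rich promoters that stay accessible and carry Polycomb marks while little mRNA is made, and other genes lack the factor that would activate them. CpG-poor promoters of tissue-specific genes are in general methylated and closed in cells that do not use the gene.

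The 250 bases before the TSS are printed for 5 named members so that the range of promoter types can be seen. They were placed by the TSS and not by the peak. The region at Pla2g4e (chr2:120245108-120245295) lies past its TSS and holds none of the printed bases. That at Pdx1 (chr5:147269920-147270496) holds only the last of them. Sequences were read from RefSeq GRCm38.p6, the same build as mm10, 5′ to 3′ on the strand of the gene. In the first 4, capitals mark each CG dinucleotide, and in the last they mark TATAAA. Pdx1 (pancreatic homeobox factor, chr5:147269709-147269958, plus strand) and Fstl5 (a secreted follistatin-like protein, chr3:76074309-76074558, plus strand) had the most significant WT peaks of their gene groups. Hrh1 (histamine receptor H1, chr6:114397686-114397935, plus strand) was the second most significant of the members with a peak in no mutant list. Pla2g4e (a phospholipase A2, chr2:120245336-120245585, minus strand) had the smallest p of the named genes with more mRNA in the mutants. Hist1h4j (a histone H4 gene, chr13:21734814-21735063, plus strand) stands for the replication-dependent histone genes.
Pdx1: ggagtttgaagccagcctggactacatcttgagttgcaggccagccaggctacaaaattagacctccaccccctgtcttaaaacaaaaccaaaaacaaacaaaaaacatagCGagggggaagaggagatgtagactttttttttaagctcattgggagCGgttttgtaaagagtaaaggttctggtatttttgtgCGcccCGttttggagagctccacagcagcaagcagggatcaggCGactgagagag
Fstl5: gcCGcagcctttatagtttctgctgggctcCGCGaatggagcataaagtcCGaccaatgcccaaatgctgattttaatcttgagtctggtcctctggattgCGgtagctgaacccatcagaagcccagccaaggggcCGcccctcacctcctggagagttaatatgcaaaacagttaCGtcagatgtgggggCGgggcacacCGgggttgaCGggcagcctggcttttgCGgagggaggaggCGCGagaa
Hrh1: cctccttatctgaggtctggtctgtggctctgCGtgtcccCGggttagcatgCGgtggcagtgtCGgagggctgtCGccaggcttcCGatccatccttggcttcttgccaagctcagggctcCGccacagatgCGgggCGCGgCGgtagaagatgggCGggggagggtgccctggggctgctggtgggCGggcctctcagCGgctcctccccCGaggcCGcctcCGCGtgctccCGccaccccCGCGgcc
Pla2g4e: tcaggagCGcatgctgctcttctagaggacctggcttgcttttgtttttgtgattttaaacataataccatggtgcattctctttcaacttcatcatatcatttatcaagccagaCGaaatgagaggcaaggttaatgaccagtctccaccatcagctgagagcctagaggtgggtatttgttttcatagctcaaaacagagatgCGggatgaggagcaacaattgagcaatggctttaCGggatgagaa
Hist1h4j: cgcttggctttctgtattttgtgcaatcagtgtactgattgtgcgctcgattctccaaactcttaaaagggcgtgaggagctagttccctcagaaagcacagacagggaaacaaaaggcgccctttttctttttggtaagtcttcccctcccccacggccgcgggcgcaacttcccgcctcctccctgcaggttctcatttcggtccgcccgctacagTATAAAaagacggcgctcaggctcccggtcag

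Of these, Hrh1 had the most CG dinucleotides, 21 in 250 bases, with 71.2% G and C. Fstl5 had 13, Pdx1 5 and Pla2g4e 4. In Hist1h4j, with 16 CG dinucleotides, the TATAAA started 32 bases before the TSS.

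The open promoters of silent genes lay between expressed promoters and closed ones in CpG content. In the 300 bases around the nearest TSS (250 before to 50 after), the median ratio of observed to expected CpG was 0.543, with quartiles of 0.350 and 0.743. It was 0.749 at 12046 open promoters of expressed genes. At the 5285 protein-coding genes under 1 CPM with no peak in any of the 6 lists, it was 0.140. By a common rule of at least 50% G and C and a ratio of at least 0.6, 916 of the 2345 (39.1%) were CpG-rich, against 67.3% of open promoters of expressed genes, 1.27% of closed promoters and 42.0% of 19163 protein-coding genes at their gene start. Leaving out olfactory, vomeronasal and taste receptors, 1.73% of the closed promoters were CpG-rich. Closed and all promoters were taken at the gene start and open ones at the TSS nearest the region. At the gene starts of the 2096 silent genes with an open promoter, the median ratio was 0.484 and 32.1% were CpG-rich, still between closed and expressed promoters. Most open silent promoters were not CpG-rich on either basis.

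**Figure D1:**
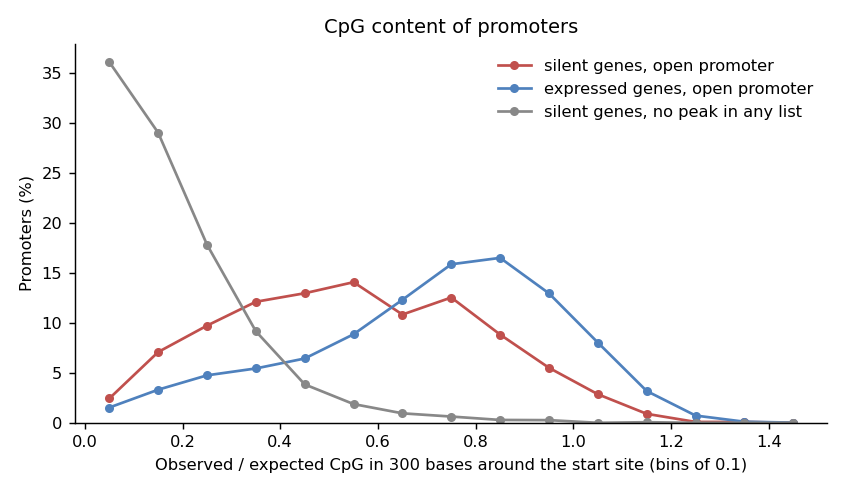
Share of promoters (%) in each bin of observed over expected CpG, for the 2345 open promoters of silent genes, 12046 open promoters of expressed genes and 5285 silent genes with no peak in any list. The curve of the open silent promoters (median 0.543) lies between those of the closed (0.140, at gene starts) and the expressed ones (0.749).

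Motifs were searched in the same 300 bases on both strands, as a description without a test, with open promoters again at the nearest TSS and closed and all promoters at gene starts. GGGCGG, the core of the site of Sp1-like factors, was found in 49.9% of the open promoters of silent genes, against 65.0% of the expressed, 6.13% of the closed and 43.5% of all promoters. CCGGAAG, a core of ETS factor sites, was found in 4.99%, against 16.3%, 1.40% and 10.9%. For GCGCATGC, the palindrome of NRF1, the shares were 1.41%, 4.95%, 0.435% and 3.44%, and for AAGATGGC, the YY1 core, 0.768%, 4.28%, 1.15% and 2.82%. TATAAA ran the other way, with 7.97% of the open silent, 5.65% of the expressed, 25.4% of the closed and 12.8% of all promoters. CCAAT was found in 32.2%, 37.3%, 40.3% and 38.5%. At the 2096 gene starts of the silent genes with an open promoter, GGGCGG stood at 43.8%, CCGGAAG at 4.91%, TATAAA at 10.2% and CCAAT at 34.2%. The E-box CACGTG stood at 7.59% against 9.88% at expressed promoters, TGACGTCA, the CREB site, at 1.83% against 3.21%, and TCTCGCGA at 0.213% against 1.89%. ATGCAAAT, the octamer, stood at 1.49% against 1.44%, TTCCCGC, an E2F core, at 6.23% against 8.58%, and TTCAGCACC, part of the REST site, at 1.07% against 0.398%. The open silent promoters thus held fewer ETS, NRF1 and YY1 letters than the expressed ones, and more of the REST letters, from which nothing follows about binding.

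The 2345 regions lay near the TSSs of 2096 silent genes, which were 26.2% of the 8009 silent protein-coding genes on these chromosomes. Being silent and open is what chose them, so shares by gene group are descriptions. Among groups with at least 5 silent genes open, the share was highest for replication-dependent histone genes (44 of 54 silent genes open, 81.5%), ion channels and neurotransmitter receptors (109 of 160, 68.1%), developmental transcription factors other than homeobox genes (64 of 103, 62.1%), homeobox and Pax genes (61 of 99, 61.6%), zinc finger genes named Zfp (19 of 32, 59.4%), secreted signals (32 of 56, 57.1%) and cadherins and protocadherins (33 of 66, 50.0%). Germline genes (22 of 94, 23.4%), orphan and adhesion G protein-coupled receptors (25 of 128, 19.5%) and immune surface and cytokine genes (50 of 261, 19.2%) were at or below the share of all silent genes. Only 5 of 93 silent keratin genes and 11 of 1339 silent olfactory and vomeronasal receptor genes were open. All 10 ESC markers were expressed, and both silent primitive endoderm markers, Sox17 and Foxa2, were open.

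**Figure D2:**
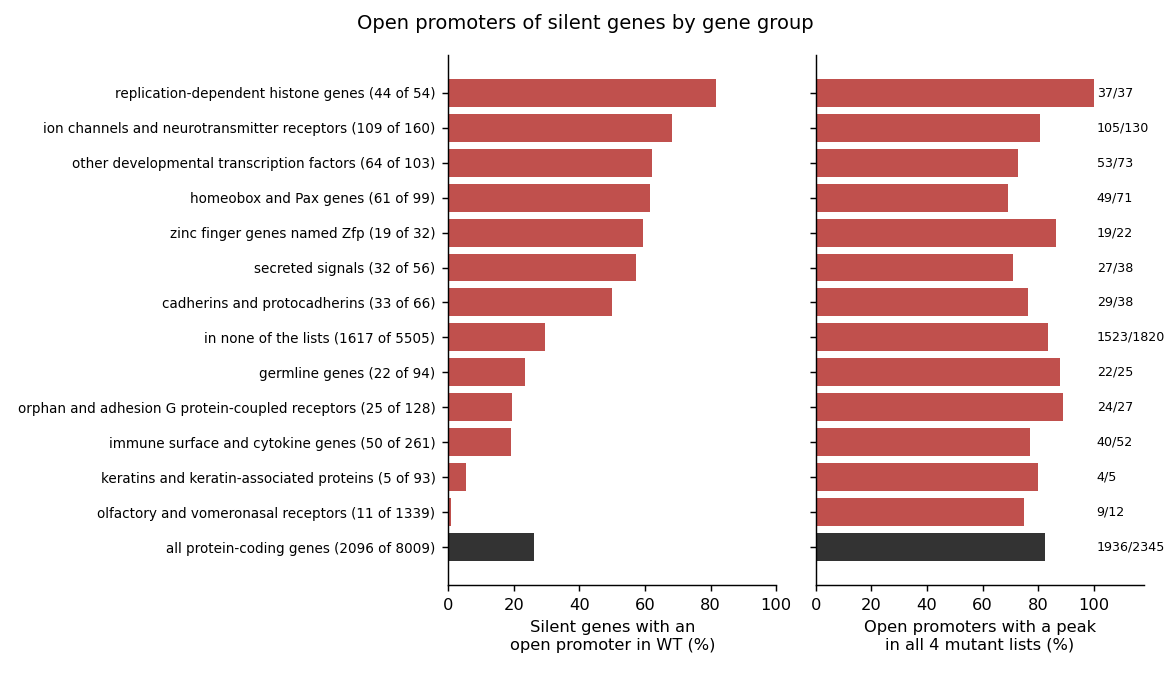
Left, percent of silent genes of each group with an open promoter in WT (numbers of genes in brackets). Right, percent of the open promoters of that group with a peak in all 4 mutant lists (numbers of regions at the right). Histone genes stand at 44 of 54 and 37 of 37, and all silent genes at 2096 of 8009 and 1936 of 2345.

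Among homeobox and Pax genes, which specify position and cell type in the embryo, the most significant peak was at Pdx1 (chr5:147269920-147270496). Its fold enrichment over background, the value the peak caller gave, was 8.42 and 10.4 in WT, with 9.02 and 8.75 for Mut18 and 9.38 and 10.2 for Mut43, beside 0 to 3 mRNA reads in each library. Isl2, a motor neuron factor (chr9:55540863-55541214), had 6.12 and 6.97 in WT, with 8.00 and 7.08 for Mut18 and 7.02 and 7.52 for Mut43. The WT and mutant values overlapped at Pdx1, whereas at Isl2 every mutant value was above both WT values. Here and below, such orders are descriptions, since fold enrichment was not scaled between lists and the regions with such an order were not counted. Members with a peak in all 4 mutant lists had medians of 7.52 and 8.06 in WT and 7.69 to 7.90 in the mutants. Pax5, of B cells, and Irx6 followed, both absent from the count table and with a peak in all 6 lists. The group as a whole was weaker, with a median WT fold enrichment of 4.60 against 7.33 over all 2345 regions. Of its 71 regions, 49 (69.0%) had a peak in all 4 mutant lists and 8 had one in none.

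The other developmental transcription factors were led by Hey2, a Notch target, with a fold enrichment of 8.60 and 9.69 in WT and 9.85 to 10.98 in the mutants, each above both WT values. Sox8, Mafa and Olig1 came next, and Olig1 had a region 1330 bp wide. In this group 53 of 73 regions (72.6%) had a peak in all 4 mutant lists, at a median WT fold enrichment of 5.27. Among secreted signals, Fstl5 (chr3:76074118-76074739) had 17.4 and 16.3 in WT, with 15.9 and 15.9 for Mut18 and 13.7 and 15.6 for Mut43. Each mutant value at Fstl5 was below both WT values. Bmp6, a bone morphogenetic protein, had 8.21 and 9.63 in WT and 9.26 to 10.7 in the mutants, and Fgf23, the phosphate hormone, 12.02 and 15.1 in WT and 13.1 to 15.3 in the mutants. WT and mutant values overlapped at both genes. Of the 38 regions of the group, 27 (71.1%) had a peak in all 4 mutant lists.

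Ion channel and neurotransmitter receptor genes, which act in neurons, muscle and gland, gave the largest group with 130 regions. Htr5b, a serotonin receptor, had 12.7 and 14.1 in WT and 12.02 to 13.1 in the mutants. Gabrg1, a GABA receptor subunit, had 12.6 and 15.8 in WT and 12.3 to 15.3 in the mutants, so that WT and mutants overlapped at both. Trpc6, a cation channel, and Kcne3, a potassium channel subunit, had a fold enrichment over 10 in all 6 lists and were absent from the count table. In this group 105 of 130 regions (80.8%) had a peak in all 4 mutant lists, close to the 82.6% of all members. Among cadherins, adhesion proteins of neurons and other cells, Pcdh9 and Cdh18 led, and 29 of 38 regions (76.3%) had a peak in all 4. Gpr39, a zinc-sensing receptor, and Adgra1 led the orphan and adhesion receptors, where 24 of 27 regions (88.9%) did.

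Of the germline genes, Adam5, a testis ADAM gene, had the most significant peak, at 17.0 and 18.6 in WT and 17.4 to 19.7 in the mutants, and 22 of 25 regions (88.0%) of the group had a peak in all 4 mutant lists. Il18, a cytokine, led the immune genes, with 40 of 52 regions (76.9%) kept. The 22 regions at Zfp genes stood apart in motif, with CCGGAAG in 8 (36.4%), beside 4.99% of all members. Duxf3, Duxbl1, Duxbl2 and Duxbl3, of the double-homeobox family used at the 2-cell stage, had weak peaks, with a median WT fold enrichment of 5.29 in the group. The family includes near-identical copies, where reads that match several places can be assigned in different ways.

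The replication-dependent histone genes, which supply histones in S phase, had the lowest fold enrichment of the groups, with a WT median of 3.74, and yet all 37 regions had a peak in all 4 mutant lists. Hist1h4j (chr13:21734642-21735736) had 6.97 and 7.15 in WT, with 6.99 and 7.42 for Mut18 and 7.97 and 7.63 for Mut43. Hist1h3e (chr13:23561648-23562632) had 6.05 and 6.55 in WT and 6.12 to 7.14 in the mutants. WT and mutant values overlapped at both genes. TATAAA stood in 19 of the 37 promoters (51.4%) and CCAAT in 27 (73.0%), against 7.97% and 32.2% of all members. Most mRNAs of these genes end without a poly(A) tail, so a low count in mRNA-seq does not show that they were silent, and whether the libraries were made from poly(A) RNA is not given in the sources used here. Many of these genes are near-identical, so both peaks and reads can be shared among copies.

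The 5 most significant members of all were Gm10800, Gm14443, Gm14408, Gm32687 and Gm45871, predicted genes absent from the count table, each with a peak in all 6 lists. Gm10800, the first of these, had a fold enrichment of 6.38 and 6.94 in WT, below the median of 7.33 over all members. Gm14443 had 14.9 and 18.4 in WT and 17.1 to 19.1 in the mutants. Whether reads that match several places add to these 5 peaks was not tested. Oaz1, ornithine decarboxylase antizyme, a widely expressed gene, and Akr1b3, an aldose reductase, also had strong peaks, and were chosen for naming after their values had been seen. Both were counted as silent because the table does not list them. The table lists no gene under 11 counts over the 6 libraries, and 852 of the 2096 genes (40.6%) were absent from it. Regions whose nearest gene was absent (919) had a peak in all 4 mutant lists in 81.9% of cases, and those whose gene was listed (1426) in 83.0%.

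Distances to expressed genes are descriptions, since the choice itself left out regions within 500 bp of a TSS at 1 CPM or more. Genes absent from the count table were again taken as not expressed. The nearest TSS at 1 CPM or more lay beyond 50000 bp for 1135 regions (48.4%), between 5000 and 50000 bp for 1089 and within 1000 bp for 15, and 84 regions (3.58%) overlapped the body of an expressed gene. The WT summit lay within 100 bp of the TSS in 1075 regions (45.8%), and 86.0% of these had a peak in all 4 mutant lists, against 79.6% of the 1005 with a summit farther away and up to 500 bp. The median WT fold enrichment was 7.97 in the first set and 6.99 in the second. By the WT level of the gene, the share was 83.1% of 616 regions at 0.5 CPM or more and 82.2% of 741 regions at 0.1 to under 0.5 CPM. It was 82.5% of 988 regions under 0.1 CPM. These 988 include the 919 regions whose nearest gene was absent from the count table and counted as 0, so that set has mostly no measured level.

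To see how far the open state was shared by H3.3K27R mutant ESCs, the mutant lists, which the selection did not use beyond the edges of merged regions, were compared between the classes. Peaks were found at 88.0% and 92.9% of the 2345 regions in the Mut18 lists and at 91.4% and 89.7% in the Mut43 lists. The same lists held a peak at 93.0%, 95.8%, 95.1% and 93.6% of the 12048 open promoters of expressed genes. The silent class was lower in 4 of 4 lists, by a mean difference of -3.88 percentage points (SD 0.85, n = 4 lists), larger than the SD of the silent share among lists of 2.12. The exact permutation test on the signs of the 4 paired differences gave p = 0.125, two-sided, which is the smallest p it can give. In all 4 mutant lists a peak was found at 1936 members (82.6%) and at 89.9% of the expressed class, and across all 55782 WT regions the share was 78.1%. In no mutant list a peak was found at 76 members (3.24%), at 2.15% of the expressed class and at 4.89% of all WT regions.

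Peak strength moved with this difference. The median -log10 q, the peak caller's significance, was 26.8 and 21.4 in the WT lists at silent promoters and 36.8 and 31.4 at expressed ones, and the median peak width was 560 and 443 bp against 691 and 581 bp. Fold enrichment differed less, with WT medians of 7.06 and 7.59 against 7.31 and 8.11. At a mean WT fold enrichment of up to 4 the difference was -0.70 points (p = 0.5, exact permutation test). Where it was over 4 and up to 6, the mean share with a mutant peak was 78.9% of 560 silent and 85.5% of 2653 expressed promoters, a difference of -6.59 points. Over 6 and up to 8 it was 92.1% of 741 and 96.6% of 3265 promoters, a difference of -4.49 points, and over 8 and up to 12 the difference was -0.87. Each of these 3 had the same sign in 4 of 4 lists and p = 0.125 by the exact permutation test, without adjustment over the bins.

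Among promoters of like -log10 q, a comparison chosen after seeing the data, the order was not kept. From 6 to 10, with 34 silent and 98 expressed promoters, the difference was -6.35 points (p = 0.125, exact permutation test). Over 10 and up to 15, a mutant peak was found at 62.4% of 350 silent and 59.5% of 930 expressed promoters, a difference of 2.87 points (lowest and highest list 1.94 and 3.71, p = 0.125, exact permutation test). Over 15 and up to 25, the shares were 92.6% of 857 and 91.6% of 2683, and above 25 both were over 99% of promoters. Over all bins, weighted by the silent class, the difference was 0.67 points (p = 0.125, exact permutation test), of the opposite sign to the unmatched one. The lower share of silent promoters was thus found at like fold enrichment over 4 and up to 12 and, over all bins, not at like significance. At a fold enrichment over 12, both classes had a peak at 100% of promoters.

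**Figure D3:**
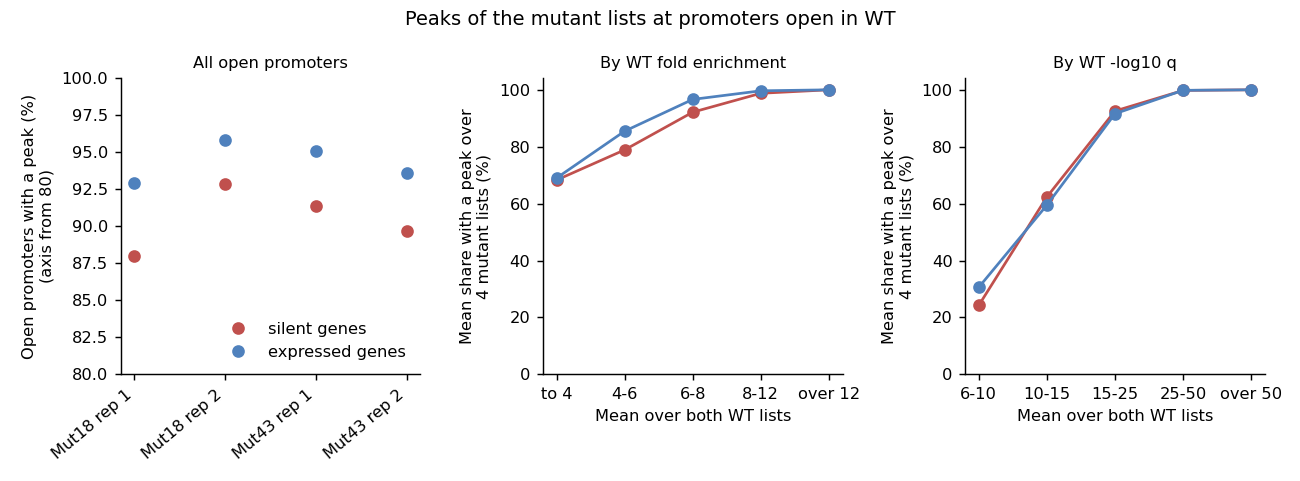
Left, percent of open promoters with a peak in each mutant list, on an axis from 80, where the silent class (88.0% to 92.9%) is below the expressed class (93.0% to 95.8%) in every list. Middle and right, mean share over the 4 mutant lists in bins of WT fold enrichment and of WT -log10 q, where the silent minus the expressed share reaches -6.59 points in the middle panel, and in the right one is -6.35 points in the lowest bin and 2.87 points in the next.

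Because the members had to have a peak in both WT lists, a fair comparison of genotypes needs a list that took no part in the choice. Regions were therefore selected anew on 1 list at a time, with silence set by the mRNA of the same line and the 63588 most significant peaks of every list, the number in the shortest list. The edges of the regions still came from all 6 lists. Selected on WT replicate 1 (2268 regions), 93.1% had a peak in the other WT list and 87.9% to 89.9% in the mutant lists. Selected on WT replicate 2 (2270 regions), 93.0% had a peak in the other WT list and 86.8% to 89.2% in the mutant lists. Both times the WT list lay above all 4 mutant lists. Regions selected on a mutant list (2343 to 2437) had a peak in the WT lists in 92.3% to 94.5% of cases, in the other clone in 90.1% to 93.2% and in the same clone in 90.3% to 93.4%. For 3 of the 4 mutant lists, both WT shares lay above all 3 shares of the other mutant lists, and for Mut18 replicate 1 the lower WT share, 92.3%, lay below the highest of the mutant ones, 92.5%. For expressed genes, the shares were 96.1% and 96.7% from WT to WT, 93.2% to 93.9% from WT to mutants and 95.9% to 96.8% from mutants to WT. With all deposited peaks, regions selected on WT replicate 1 had a peak in 86.3% of cases in the other WT list and in 78.9% to 85.1% in the mutant lists. Each selection has 1 or 2 WT lists against 4, so no test was made.

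Among the 76 members with a peak in no mutant list, the most significant WT peaks were at Rftn2, a lipid raft protein (chr1:55205928-55206135), with a fold enrichment of 6.80 and 8.09, at Hrh1 (chr6:114397706-114398235), with 6.04 and 5.82, at Nos1ap, an adaptor of neuronal nitric oxide synthase, with 6.17 and 7.52, at Clec2l, with 6.15 and 7.98, and at Oprd1, the delta opioid receptor, with 5.41 and 6.37. Their genes were expressed at 0.496 to 0.958 CPM in WT. Hrh1 had 11 and 18 reads in WT, with 9 and 10 for either clone, and Nos1ap had 10 and 9 in WT and 3 to 7 in the mutants. At both genes each mutant count was below both WT counts. Reads overlapped between genotypes at Rftn2 (13 and 14 in WT, 5 to 18 in the mutants) and Clec2l (9 and 6 in WT, 7 to 17 in the mutants). They also overlapped at Oprd1 (9 and 20 in WT, 7 to 15 in the mutants). Such orders at low counts are descriptions. The 76 were weak as a set, with a median WT fold enrichment of 4.63 against 7.33 and a median width of 274 bp against 600 bp, and a peak just under the authors' threshold looks the same in these lists as no signal. The set included regions of the developmental regulators Sox5, Pax1, Atoh8, Pax2, Osr1, Lhx8, Lhx2, Sox7 and Hlx, named here after their values had been seen. Pax1 had 2 regions among the members, and the other had a peak in all 4 mutant lists. The largest WT peaks were not among the 76, since every one of the 187 members with a mean WT fold enrichment over 12 had a peak in all 4 mutant lists.

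The clones were compared in the same way. The mean share of members with a peak was -0.11 percentage points different between Mut18 and Mut43, and the exact permutation test over the 6 splits gave p = 1, where the smallest possible p is 0.333. Both Mut18 lists and neither Mut43 list held a peak at 14 members (0.597%), led by Kcnk3, a two-pore potassium channel. Kcnk3 had 5.66 and 7.41 in WT and 5.39 and 6.57 in Mut18. Kcnt1, a sodium-activated potassium channel, and Fsbp followed. The reverse was found at 13 members (0.554%), led by Gm3164, Syt17, a synaptotagmin, and Tmem132d. Syt17 had 5.39 and 5.97 in WT and 6.27 and 6.66 in Mut43. It had 2 regions among the members, and the other had a peak in all 4 mutant lists. Replicates of 1 clone differed at more members, with a peak in only 1 of the 2 lists at 209 (8.91%) for Mut18 and 174 (7.42%) for Mut43. At open promoters of expressed genes these shares were 4.74% and 4.46%. A peak in both lists of Mut18 only or of Mut43 only was found there at 0.291% and 0.299%. At silent protein-coding promoters, 15 regions had a peak in all 4 mutant lists and in no WT list, and at expressed ones also 15.

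**Figure D4:**
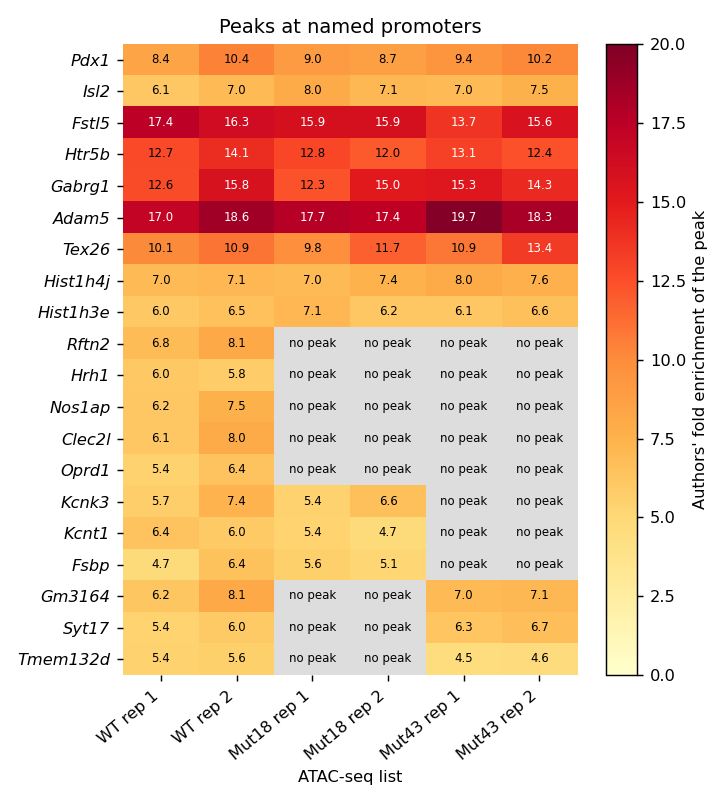
Fold enrichment given by the authors for the peak of each list at 20 named promoters, with grey where a list holds no peak. The upper 9 genes are among the most significant of their gene groups and have a peak in all 6 lists, the next 5 have none in the mutant lists, and the last 6 have one in both lists of a single clone only.

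CpG-rich and CpG-poor members were also compared in the mutant lists. A peak was found at 85.8%, 91.4%, 90.6% and 88.8% of the 916 CpG-rich members and at 89.4%, 93.8%, 91.9% and 90.3% of the 1429 others. The mean difference was -2.20 points, of the same sign in 4 of 4 lists (p = 0.125, exact permutation test, the smallest possible). The median WT fold enrichment was 6.96 for CpG-rich and 7.58 for the others, while the median -log10 q was 24.2 and 23.6.

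The mRNA of the silent genes was low by selection in WT, so all values of WT against mutants below, the calls of edgeR and DESeq2 included, are descriptions from which nothing is read about the silent genes. Of the 2096 genes, 1244 were listed, with 8581 to 9293 reads in sum per library out of 14992756 to 15143998. The median gene had 0.463 and 0.462 CPM in WT and 0.332 to 0.333 CPM in the mutants, and the number at 0 reads was 24 and 22 in WT and 42 to 65 in the mutants. At 1 CPM or more were 74 and 48 genes in single WT libraries and 110 to 127 in mutant libraries, although the summed level was alike (579 and 615 CPM in WT, 572 to 590 CPM in the mutants). A WT mean under 1 CPM leaves few ways to be high in WT, so the order of these counts is partly set by the choice. A gene under 1 CPM in 1 mutant library was found at 1 CPM or more in 18.4% to 27.6% of cases in a WT library, and in 6.76% to 12.3% of cases in another mutant library. A gene under 1 CPM in 1 WT library was found there in 9.82% to 12.2% of cases in a mutant library and in 9.17% or 13.9% of cases in the other WT library. These shares cover all listed genes with an open promoter in WT.

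Of the 1244 listed genes, 107 (8.60%) had a mutant mean of 1 CPM or more, 50 reached it in all 4 mutant libraries and 11 had a mutant mean of 2 CPM or more. Most of the 107 started near the limit, since 90 had a WT mean of 0.5 CPM or more. In the mirrored choice, genes open in all 4 mutant lists with a mutant mean under 1 CPM, 276 of 1295 (21.3%) had a WT mean of 1 CPM or more. The genes nearest to the limit inside were Lctl, Ccn3 and Galnt18, at 0.992 CPM, 0.992 CPM and 0.992 CPM, and outside Gpr27, Hdhd3 and Ccdc74a, each at 1.02 CPM.

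Low counts decided which silent genes could be tested across genes. Only 440 of the 1244 passed edgeR's filter, and a gene that passed on its mutant reads alone had to be higher there. At an adjusted p under 0.05 and over 2-fold in edgeR's quasi-likelihood test, 76 of the 440 (17.3%) were called higher in the mutants and 32 (7.27%) lower, where 3.28% and 5.65% of all 14061 tested genes were called. These shares are not comparable, since low WT reads chose the members and mutant reads could carry a gene past the filter. With no filter on low counts the same test called 83 higher and 136 lower, and DESeq2 called 43 higher and 15 lower. Without WT replicate 1 the calls were 47 higher and 37 lower, and without WT replicate 2 they were 60 higher and 69 lower. The balance of directions thus changed with the filter and with single WT libraries. The summed level of feeder fibroblast markers was 397 and 498 CPM in WT and 221 to 337 CPM in the mutants, that of ESC markers 4051 and 4193 CPM in WT and 4430 to 4605 CPM in the mutants, and that of primitive endoderm markers 142 and 199 CPM in WT and 180 to 183 CPM in the mutants. Their part in the calls was not tested. In bulk cells, fewer cells that express a gene and less mRNA per cell cannot be told apart.

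The named genes with more mRNA in the mutants were the 8 of largest fold whose mean reached 20 normalized counts in WT or in the mutants, a minimum that silent genes could reach only through the mutants, so their counts are shown here without a fold. Grin1, the obligatory subunit of the NMDA receptor, had 9 and 13 WT reads against 47 and 71 in the Mut18 libraries and 51 and 75 in those of Mut43. Stra8, which starts meiosis in germ cells, had 9 and 19 reads in WT, with 65 and 55 for Mut18 and 83 and 91 for Mut43. In both genes all 4 mutant libraries lay above both WT libraries. The same held in CPM for 73 of the 76 genes called higher, an order that the choice favours. Pla2g4e had 18 and 8 reads in WT, with 73 and 66 for Mut18 and 74 and 62 for Mut43. Slc51a, an organic solute transporter subunit, had 3 and 10 reads in WT and 27 to 48 in the mutants. Mt3, a metallothionein of the brain, had 8 and 13 reads in WT and 35 to 47 in the mutants. Hsh2d, an adaptor of lymphocytes, had 2 and 5 reads in WT and 15 to 30 in the mutants, and Ly6g6c 1 and 6 in WT and 15 to 30 in the mutants. Acp7, an acid phosphatase, had 4 and 6 in WT and 16 to 34 in the mutants.

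The peaks at these promoters did not all move with the mRNA. Stra8 had a fold enrichment of 5.37 and 6.08 in WT, with 7.19 and 6.85 for Mut18 and 7.26 and 6.40 for Mut43, with each mutant value above both WT values. Hsh2d had 7.17 and 10.1 in WT and 9.66 to 10.5 in the mutants. At Grin1, the region at the gene start had 7.06 and 7.73 in WT and 5.58 to 8.87 in the mutants, overlapping fully. Mt3 had 6.07 and 7.10 in WT and 5.42 to 6.22 in the mutants. Pla2g4e, in turn, had a peak of 4.499 and 5.11 in WT, none in either Mut18 list, and 4.22 and 3.81 in Mut43, beside more reads in both clones. At Acp7, 1 of the 2 regions had no mutant peak and the other had a peak in all 6 lists.

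**Figure D5:**
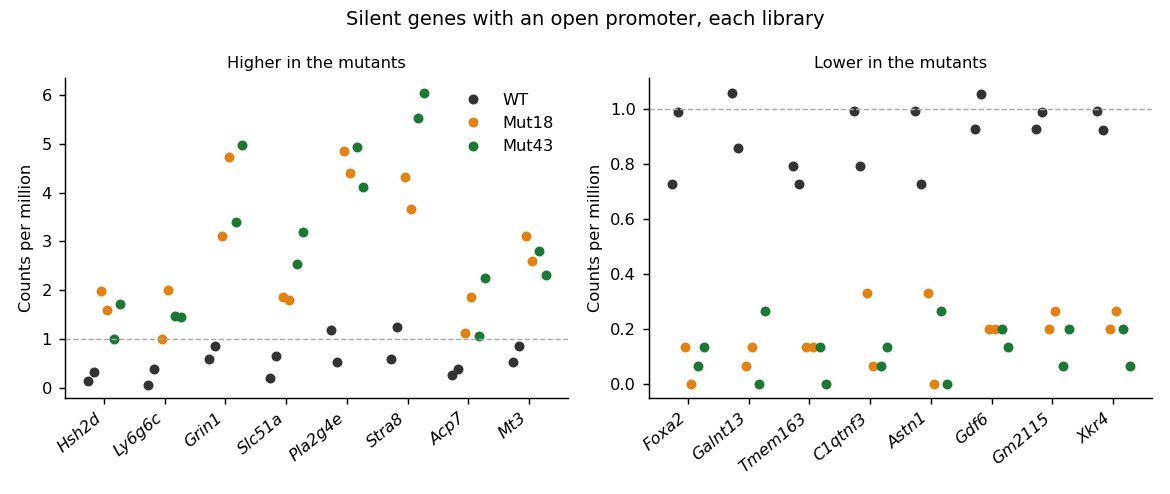
CPM in each library for the 8 named genes with more mRNA in the mutants and the 8 with the largest fold among those with less, with a dashed line at 1 CPM, the limit of the choice. The mutant libraries lie at 0.995 to 6.04 CPM in the left panel and at 0 to 0.332 CPM in the right one.

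Calls by gene group are counts of the same kind, to be set beside 17.3% higher and 7.27% lower among the 440 tested members and 3.28% and 5.65% among all tested genes, and nothing is read from them. Of 28 listed histone genes 12 were tested, with 6 called higher, among them Hist1h4d, Hist1h3b and Hist1h3a, and none lower. Hist1h3b had 8 and 10 reads in WT, with 25 and 18 for Mut18 and 24 and 25 for Mut43. Of 13 tested developmental transcription factors outside the homeobox list, none was called higher and 4 lower, among them Foxa2, Egr4 and Zic1, and of 5 homeobox and Pax genes 1 was lower, Pax1. Immune genes had 3 higher (Cd2, Tnfrsf8 and H2-Eb1) and 1 lower (H2-Ab1) of 13. Secreted signals had Nrg2 higher and Gdf6 lower of 7, ion channels Grin1 higher and Kcna6 lower of 12, cadherins Pcdh9 lower of 7, germline genes Meiob higher of 4, and orphan receptors Lgr5 higher of 4. In WT a silent gene cannot exceed about 15 reads on average, so no gene called lower met the minimum of 20 normalized counts, and those named were chosen after their values were seen. Foxa2, an endoderm factor, had 11 and 15 reads in WT and 0 to 2 in the mutants, and its peak of 3.85 and 4.41 in WT was 4.14 to 4.54 in 3 mutant lists and missing in 1. Gdf6, a growth factor of joints and eye, had 14 and 16 reads in WT and 2 or 3 in the mutants. Galnt13, a glycosyltransferase of neurons, had 16 and 13 reads in WT and 0 to 4 in the mutants.

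Peak loss and mRNA were compared at the genes whose open promoters had a peak in no mutant list. Of the 28 listed, 10 were tested, 1 was called higher and none lower, too few to set against the 17.3% and 7.27% of the 440 tested members. Of the 76 genes called higher, 68 had a region with a peak in all 4 mutant lists, as did 29 of the 32 called lower and 392 of all 440 tested (89.1%).

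The mRNA of the clones took no part in the choice, and it was compared in a fit with 3 groups. None of the 440 tested genes was called different between Mut18 and Mut43 in either direction by edgeR's quasi-likelihood test, where 0.00711% of all 14061 genes were called higher in Mut43 and 0% lower. At an unadjusted p under 0.05 there were 26 such genes (5.91%), 17 higher and 9 lower in Mut43, beside 8.52% of all tested genes. DESeq2 also called 0 of the 440, with 1 at an unadjusted p under 0.05. The median log2 fold change of Mut43 over Mut18 was 0.01 for the 440 and -0.00 for all tested genes.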

How the data were processed

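The members, gene lists and motifs were chosen with earlier results of these data known. For mRNA-seq, the authors deposited raw read counts per gene for 6 libraries without normalization. For ATAC-seq, the authors deposited for each of 6 libraries, replicates not pooled, peaks with a fold enrichment (a ratio over background), and with -log10 p-values and -log10 q-values, all with a -log10 q above 6. Per the submitters' notes the tools included Bowtie2 2.3.4.2, SAMtools, deepTools 3.3.0, MACS2, STAR and DESeq2, and the reference was mm10 joined to dm6. Lists held 63588 to 78536 peaks, and their read depth was not used here.

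Groups came from sample titles. Of 16263 table rows, 15644 matched GENCODE symbols of GRCm38 directly, 475 by a RefSeq synonym, 24 had become dates and 56 were placed by RefSeq promoters. The other 63 had no place, 35 of them at 1 CPM or more, so a region beside one could be among the members. CPM used the table's totals, 14992756 to 15143998. Absent genes counted as 0. Of the 2052 distinct nearest genes of the members, 1469 were in the RefSeq promoter table, and sequences were read from the genome.

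Counts were tested in R 4.3.3 with edgeR 4.0.16 (minimum count 10, minimum total 15, TMM, quasi-likelihood test, Benjamini-Hochberg over all 14061 genes, adjusted p under 0.05 and over 2-fold), with DESeq2 1.42.0 as an alternative. Shares were compared by exact permutation over lists in Python 3.11.15. The procedures were tested on simulated counts and peaks. Genes were named by rule, as the up to 4 members of each list, the 5 of all members, the 5 in no mutant list and the 3 of each clone with the highest mean WT -log10 q, the called genes given above and the 3 genes on either side of 1 CPM. Alternatives changed overlap, q, peak number, TSS distance, CPM limit, TSS set, libraries, normalization, filter and tool. Columns of the authors' own comparisons were not present in these files. Other assays of the series were not analysed here, and some genes and sequences are not reported here.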

Additional observations from a re-analysis of the deposited data

How the results depend on the processing

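Read depth behind the peak lists was not used here, and a missing peak can be a weak one. The share of members with a peak in all 4 mutant lists was 61.7% where a peak had to cover at least 0.5 of the region, 79.0% with only peaks of -log10 q of 10 or more and 84.8% with TSSs within 200 bp. It was 72.4% to 85.5% with a library left out, the lowest without WT replicate 2. Selected on 1 list, the share with a peak in all 5 other lists was 71.3% for WT replicate 1, 88.3% for Mut18 replicate 1 and 86.2% for Mut43 replicate 2. The number of members was 1434 with only listed genes, and 1722 to 3070 under the other settings. The difference from expressed promoters kept its sign under 24 settings and was 2.87, 0.97 and 0.67 points within WT -log10 q of 10 to 15, of 15 to 25 and over all such bins weighted by the members. In the top bins of fold enrichment and -log10 q every promoter of both classes had a peak in every mutant list, so no difference could be had there. With a library left out it was -6.98 to -3.51 points. The difference between the clones, near 0, changed sign to 0.45 points with a coverage of at least 0.5, 0.047 with equal peak numbers, 0.11 with TSSs within 1000 bp and 0.45 with only listed genes, and ranged from -2.56 (without Mut18 replicate 2) to 2.35 (without Mut18 replicate 1) with a library left out. Calls of WT against mutants numbered 108, 58 in DESeq2, 219 with no filter and 84 to 129 with a library left out, of which 60 of the 84 without WT replicate 1 and 67 of the 129 without WT replicate 2 were among the 108. The replicate block gave 110 calls against mutants and 0 between the clones. Replicate numbers do not pair the samples, since replicate deviations correlated at -0.03, 0.04 and -0.01. All 80 values of the 8 named genes under the alternatives kept their direction. These genes were chosen by their call and large fold, so nothing is read from that. Without WT replicate 1 and 2, however, the log2 fold change was 1.92 and 4.37 for Ly6g6c (2.67 with all libraries), 1.85 and 3.56 for Slc51a (2.46), 2.27 and 3.54 for Hsh2d (2.77), 3.13 and 1.98 for Pla2g4e (2.44) and 1.99 and 3.07 for Stra8 (2.43). The cause of these shifts was not tested.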

Other observations

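Open promoters of silent genes were spread over the chromosomes, from 73 on chromosome 16 to 227 on chromosome 2. The share with a peak in all 4 mutant lists was lowest on chromosome 6 (71.4% of 126) and highest on chromosome 8 (91.8% of 110). Regions that overlapped an expressed gene had a median WT fold enrichment of 6.39, and 78.6% of these 84 had a peak in all 4 mutant lists. The 106 regions with the nearest expressed TSS between 1000 and 5000 bp away had a median of 5.38.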
